A study of Mus musculus with 6 samples.

Results

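The activity-dependent immediate early genes described here are *Fos*, *Fosb*, *Junb*, *Egr1*, *Egr2*, *Egr3*, *Egr4*, *Arc*, *Npas4* and *Nr4a1*, taken by symbol from a deposited table of messenger RNA levels. All 10 were found among its 24453 gene rows, and all 10 passed the filter on low values with 12863 genes in all. Visual cortex was profiled at postnatal day 14 in male mice of the C57BL/6J strain, with 3 libraries from *Chrdl1* knockouts (KO) and 3 from wild type (WT). Each library title opens with the genotype and a code, and each code has 1 KO and 1 WT library: KO1011 and WT1011, KO1012 and WT1012, KO1013 and WT1013. The pair that shares a code is written KO/WT1011, KO/WT1012 or KO/WT1013 below. What a code stands for, how the knockout was made and whether a library is 1 animal are not in the labels, so the p-values given here speak only of the spread among 6 libraries, which may be technical. Tissue came from mice fixed by perfusion with paraformaldehyde. Libraries were made from mRNA with a stranded kit. The mice lived on a light and dark cycle, and the labels do not state the time of day at which tissue was taken.

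Immediate early genes are transcribed within minutes of strong synaptic input, without new protein having to be made first. Calcium entry and kinase signalling act on transcription factors already bound or present, such as CREB, which recognises the cyclic AMP response element (CRE), and SRF, which recognises the CArG box. In visual cortex their transcripts follow visual experience, and some of them are widely used as marks of recently active neurons. *Chrdl1*, the gene removed in the knockout, is made mainly by astrocytes and codes for a secreted protein that binds bone morphogenetic proteins and blocks them.

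Promoters are shown because these genes are known to be switched on through short motifs near the start, and sequence was not part of how the members were chosen. The RefSeq promoter table (GRCm38.p6, the assembly called mm10) held 7 of the members, namely *Fos*, *Fosb*, *Junb*, *Egr2*, *Egr4*, *Npas4* and *Nr4a1*. Each entry runs from 250 bases before the annotated start to 50 after it. *Egr2* has 5 entries, of which the one that starts where the authors' gene model starts was used. In the authors' mm10 gene models the genes lie apart on separate chromosomes, except that *Arc* (chr15:74669081-74672570, minus strand) and *Nr4a1* are both on chromosome 15; *Egr3* is at chr14:70077795-70082613 (plus strand) and *Egr4* at chr6:85511122-85513542 (minus strand). Of the promoters, 5 of the 7 are given on lines of their own, and capitals mark the CRE core TGACG (or CGTCA on the other strand), CArG boxes and TATAAA.
Fos (chr12:85473640-85473939, plus strand): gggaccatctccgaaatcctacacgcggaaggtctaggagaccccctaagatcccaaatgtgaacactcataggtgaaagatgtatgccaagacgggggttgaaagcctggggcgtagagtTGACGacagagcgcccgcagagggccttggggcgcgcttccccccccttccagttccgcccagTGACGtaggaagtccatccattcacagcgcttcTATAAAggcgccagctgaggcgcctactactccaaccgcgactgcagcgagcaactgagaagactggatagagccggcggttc
Fosb (chr7:19309996-19310295, minus strand): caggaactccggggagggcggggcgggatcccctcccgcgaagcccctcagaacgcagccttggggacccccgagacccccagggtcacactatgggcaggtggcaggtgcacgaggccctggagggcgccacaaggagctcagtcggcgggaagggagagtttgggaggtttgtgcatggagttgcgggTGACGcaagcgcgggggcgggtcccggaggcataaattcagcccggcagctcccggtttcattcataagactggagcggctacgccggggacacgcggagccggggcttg
Egr2 (chr10:67537619-67537918, plus strand): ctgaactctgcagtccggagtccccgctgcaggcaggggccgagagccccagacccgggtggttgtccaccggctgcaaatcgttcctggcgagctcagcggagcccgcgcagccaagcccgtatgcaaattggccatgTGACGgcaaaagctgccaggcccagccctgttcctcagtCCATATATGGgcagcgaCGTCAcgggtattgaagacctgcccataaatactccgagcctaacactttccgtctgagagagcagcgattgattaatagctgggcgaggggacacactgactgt
Npas4 (chr19:4989922-4990221, minus strand): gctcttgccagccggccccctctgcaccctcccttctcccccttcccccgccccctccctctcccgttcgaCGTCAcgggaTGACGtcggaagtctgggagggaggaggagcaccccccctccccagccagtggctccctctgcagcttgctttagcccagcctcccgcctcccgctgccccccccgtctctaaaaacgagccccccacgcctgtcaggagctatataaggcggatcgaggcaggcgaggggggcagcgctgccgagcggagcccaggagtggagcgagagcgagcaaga
Nr4a1 (chr15:101266596-101266895, plus strand): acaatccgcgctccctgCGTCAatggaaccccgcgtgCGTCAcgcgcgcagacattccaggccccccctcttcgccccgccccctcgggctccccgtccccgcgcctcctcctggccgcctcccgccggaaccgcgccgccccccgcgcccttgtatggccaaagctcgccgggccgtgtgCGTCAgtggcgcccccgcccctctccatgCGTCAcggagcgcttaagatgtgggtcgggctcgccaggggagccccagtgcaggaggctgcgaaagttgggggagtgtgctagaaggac

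The CRE core TGACG was found on one strand or the other in 7 of 7 member promoters, against 20.9% of the 32544 different promoters of that length in the table. In *Fos* it begins 129 and 66 bases before the start, in *Fosb* 60 bases before it, and in *Nr4a1* at 4 places, of which the nearest begins 40 bases before it. The full CRE, TGACGTCA, which contains the core on both strands, was found in 0 of the 7 and in 1.8% of all promoters. A CArG box was found in 1 of the 7, *Egr2*, where it begins 72 bases before the start and lies between CRE cores, and in 1.64% of all promoters. The EGR site GCGNGGGCG was found in 2 of the 7 (*Fosb* and *Nr4a1*) and in 5.6% of all, and the AP-1 site TGANTCA in 0 of the 7 and 7.79% of all. TATAAA occurred in 2 of the 7 (*Fos* and *Junb*) and in 13.6% of all. It begins 33 bases before the start in *Fos*, and at the annotated start itself in *Junb*. These are matches of letters in a short window, with both strands searched, and do not show binding.

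*Chrdl1* itself was at 0.190, 0.120 and 0.172 FPKM in KO1011, KO1012 and KO1013, against 3.57, 3.09 and 3.65 FPKM in WT1011, WT1012 and WT1013. FPKM are read counts scaled to exon length and to the mapped reads of the library, so levels can be compared between genes. The log2 fold change was -1.93 (SE 0.09, limma adjusted p = 0.000489), and each library went with its label. Estimated depth was 22.7 to 31.9 megareads in KO and 27.5 to 38.2 megareads in WT. Each member held between 232 and 17563 reads per library, so counting error was small beside the differences between libraries. Markers of cortical excitatory neurons were present in every library, with a summed level of 674 to 796 FPKM in KO and 682 to 781 FPKM in WT over 6 genes.

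Ordered by mean level over the 6 libraries, the members ran *Egr1* (114 ± 31.1 FPKM), *Arc* (58.3 ± 20.4), *Nr4a1* (40.4 ± 9.49), *Junb* (35.0 ± 9.71), *Egr3* (31.8 ± 5.47), *Fos* (24.0 ± 8.51), *Egr4* (20.1 ± 5.47), *Npas4* (6.44 ± 1.67), *Egr2* (4.47 ± 2.20) and *Fosb* (3.42 ± 1.57; SD, n = 6 throughout). Only the steps from *Egr1* to *Arc* and from *Egr4* to *Npas4* were larger than the SD of both neighbours, and only at the second did the values of the neighbours not overlap. *Egr1* was nevertheless above *Arc* in 6 of 6 libraries, *Arc* above *Nr4a1* in 6 of 6, and *Nr4a1* above *Junb* in 6 of 6. *Junb* and *Egr3* changed places between libraries, with *Junb* higher in 4 of 6. These levels put *Egr1* among the most abundant transcripts, with 3.39% of tested genes above it, while 78.0% of tested genes were above *Fosb*. All members varied widely between libraries. On the log2(FPKM + 1) scale the range over the 6 libraries was 0.68 (*Egr3*) to 1.54 (*Egr2*), and between 0.544% and 5.92% of tested genes had a larger one.

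**Figure D1:**
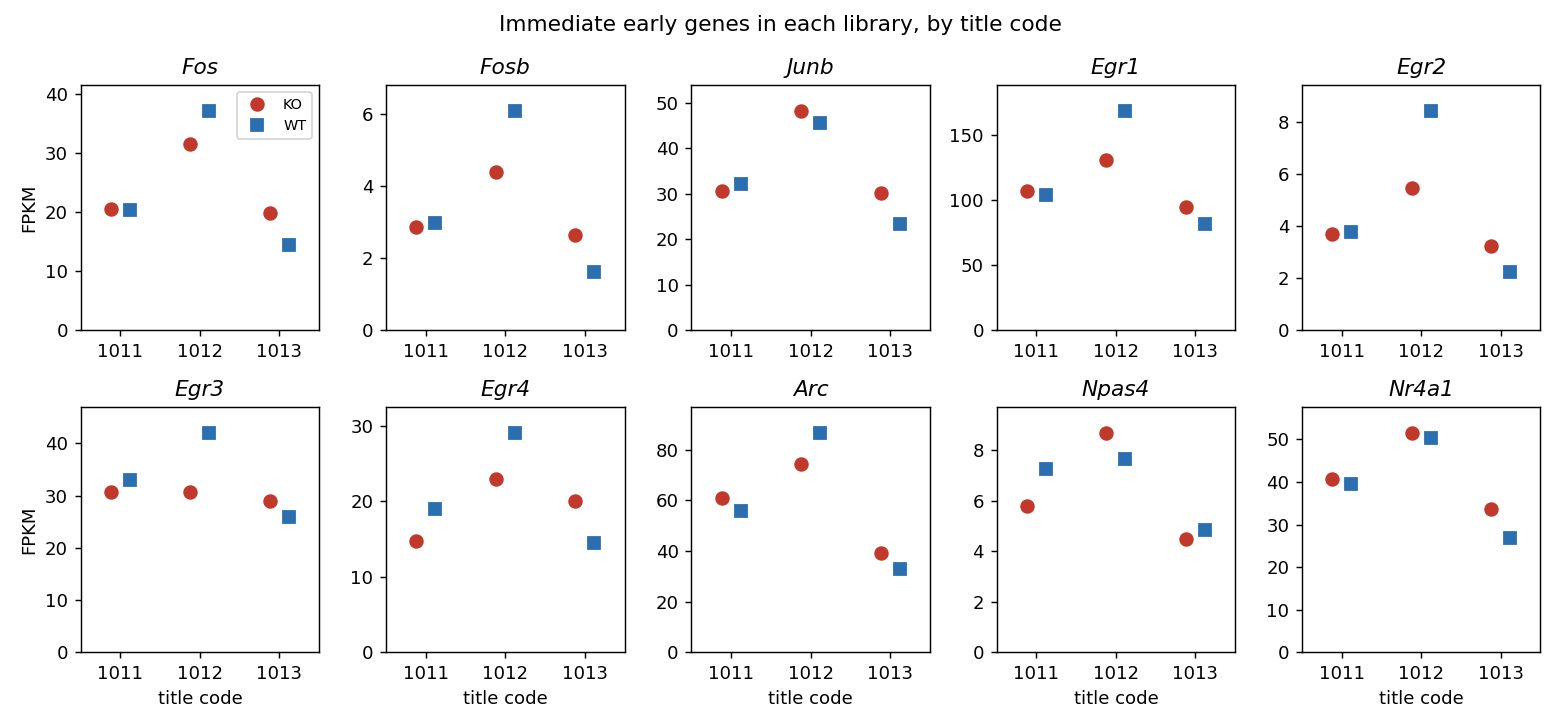
Level of each member in FPKM (vertical axis, from 0) in each library, by title code (horizontal axis), with KO as circles and WT as squares, 1 point per library. KO1012 and WT1012 were both above the other 4 for 9 of the 10 genes, and KO1013 and WT1013 both below the other 4 for 9 of the 10.

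Between title codes, 8 of the 10 members differed beyond the spread between libraries, against 30.6% of all genes in the same limma F test, and between KO and WT none passed. In bulk tissue, fewer cells of a type and less RNA per cell cannot be told apart. Of the AP-1 genes, *Fos*, whose protein pairs with Jun proteins to form AP-1, was at 20.6, 31.5 and 19.9 FPKM in KO1011, KO1012 and KO1013, against 20.3, 37.1 and 14.4 FPKM in WT1011, WT1012 and WT1013. KO1012 and WT1012 were the highest and KO1013 and WT1013 the lowest, and KO and WT overlapped. The log2 difference was -0.97 (SE 0.14) for KO/WT1013 minus KO/WT1012 and 0.71 for KO/WT1012 minus KO/WT1011, with limma adjusted p of 0.0136 and 0.0102. *Fosb*, a Fos family member with a long-lived splice form, was at 2.86, 4.39 and 2.64 FPKM in KO, against 2.97, 6.07 and 1.61 FPKM in WT. It had the same order of codes in both genotypes, and a log2 difference of -1.002 (SE 0.18, limma adjusted p = 0.0225) for KO/WT1013 minus KO/WT1012. *Junb*, which encodes a Jun family partner of Fos, was at 30.7, 48.1 and 30.1 FPKM in KO, against 32.1, 45.5 and 23.3 FPKM in WT. Its lowest library was again WT1013, and its difference between KO/WT1013 and KO/WT1012 was -0.80 (SE 0.09, limma adjusted p = 0.0104).

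The Egr genes encode zinc finger transcription factors that bind one GC-rich site. *Egr1*, also called Zif268, was at 106.9, 130.9 and 94.4 FPKM in KO1011, KO1012 and KO1013, against 103.6, 168.2 and 81.3 FPKM in WT. The KO/WT1013 minus KO/WT1012 difference was -0.75 on the log2 scale (SE 0.12, limma adjusted p = 0.0180), and the WT libraries held both the highest and the lowest value. *Egr2*, known also for its role in myelinating Schwann cells, was at 3.68, 5.46 and 3.23 FPKM in KO, against 3.78, 8.42 and 2.25 FPKM in WT. On the log2(FPKM + 1) scale it had the widest range of the 10 members, and by fold it and *Fosb* were the widest (3.75 and 3.77 from lowest to highest library). It had a difference of -1.07 (SE 0.19, limma adjusted p = 0.0211) between KO/WT1013 and KO/WT1012. *Egr3*, which is also needed for muscle spindles, was at 30.6, 30.7 and 29.0 FPKM in KO, against 33.0, 41.9 and 25.9 FPKM in WT. It was nearly level over the KO libraries, and its difference of -0.38 (SE 0.12) between KO/WT1013 and KO/WT1012 did not pass (limma adjusted p = 0.0985). *Egr4* was at 14.7, 23.0 and 20.1 FPKM in KO, against 19.1, 29.0 and 14.5 FPKM in WT. It was the one member whose lowest KO library was KO1011 and not KO1013. Its difference between KO/WT1013 and KO/WT1012 was -0.57 (SE 0.18, limma adjusted p = 0.0873), while that of KO/WT1012 minus KO/WT1011 passed (0.60, limma adjusted p = 0.0412).

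The other 3 members followed the same order of codes. *Arc* encodes a cytoskeletal protein that promotes removal of AMPA receptors from synapses and whose mRNA travels into dendrites. It was at 61.0, 74.5 and 39.1 FPKM in KO1011, KO1012 and KO1013, against 56.0, 86.6 and 33.0 FPKM in WT. KO1013 and WT1013 stood well below the other 4, and the differences of -1.14 (SE 0.10) from KO/WT1012 and -0.69 from KO/WT1011 passed, with limma adjusted p of 0.00561 and 0.00998. *Npas4*, a neuronal transcription factor that responds to calcium entry and regulates inhibitory synapses, was at 5.77, 8.67 and 4.48 FPKM in KO, against 7.26, 7.64 and 4.84 FPKM in WT. In contrast to the other 9 members it varied more over the KO libraries than over the WT ones. Its difference between KO/WT1013 and KO/WT1012 was -0.69 (SE 0.11, limma adjusted p = 0.0170). *Nr4a1*, an orphan nuclear receptor also called Nur77, was at 40.6, 51.4 and 33.6 FPKM in KO, against 39.5, 50.4 and 26.9 FPKM in WT. KO and WT differed little within KO/WT1011 and KO/WT1012, and the difference between KO/WT1013 and KO/WT1012 was -0.74 (SE 0.08, limma adjusted p = 0.00765).

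**Figure D2:**
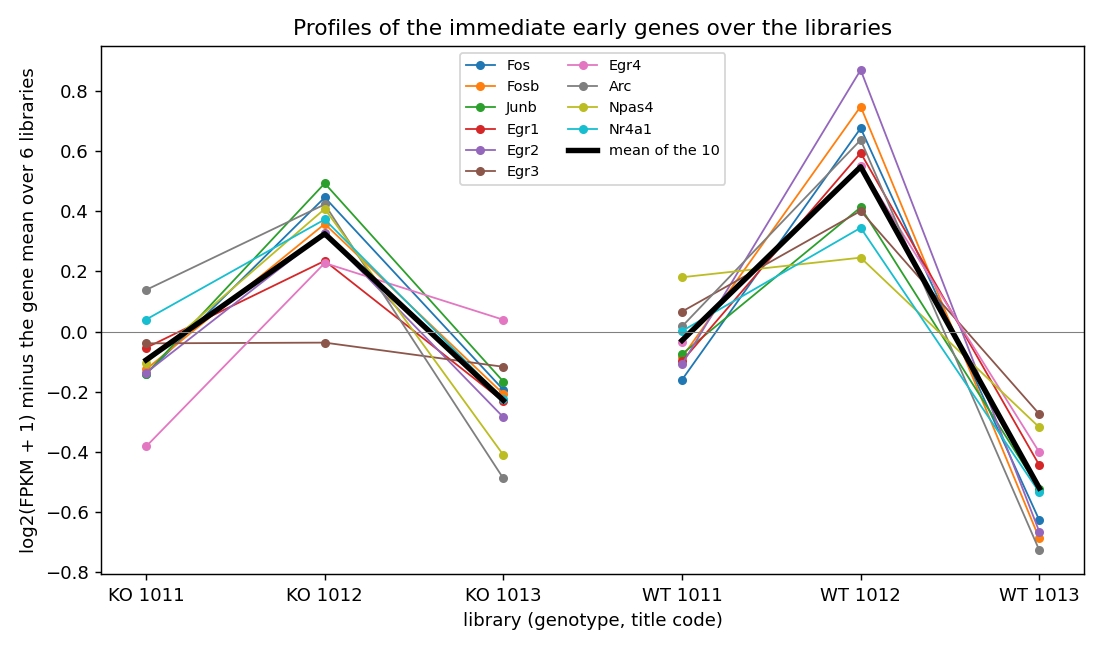
Each member's log2(FPKM + 1) minus its own mean over the 6 libraries (vertical axis) in each library (horizontal axis, KO then WT), with the mean of the 10 genes in black and lines only to guide the eye. The mean stood at 0.33 and 0.55 in KO1012 and WT1012, and at -0.23 and -0.52 in KO1013 and WT1013.

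In a limma F test over the 3 codes, with genotype in the fit, 8 of the 10 members passed at an adjusted p under 0.05, against 30.6% of all genes tested. Members with the smallest adjusted p were *Arc* (0.00236), *Nr4a1* (0.00347) and *Junb* (0.00477), and those that did not pass were *Egr4* (0.0552) and *Egr3* (0.102). For KO/WT1013 minus KO/WT1012, 8 members were lower and 0 higher, against 3.59% lower and 5.6% higher of all genes. KO/WT1012 minus KO/WT1011 had 8 members higher and 0 lower, against 15.6% higher and 13.8% lower of all genes. Between KO/WT1013 and KO/WT1011, 3 members (*Arc*, *Npas4* and *Nr4a1*) were lower and 0 higher, against 6.76% lower and 9.85% higher of all genes. The median difference over the members was -0.78 for KO/WT1013 minus KO/WT1012, while over all genes it was 0.02. A difference of at least 0.5 on the log2 scale in that direction was seen in 9 members and in 0.739% of all genes, and one of at least 0.5 for KO/WT1012 minus KO/WT1011 in 5 members and in 1.16% of all genes. KO1012 and WT1012 were both above the other 4 libraries for 9 of 10 members (not *Egr3*), against 17.6% of all genes, and KO1013 and WT1013 both below them for 9 of 10 (not *Egr4*), against 8.57%.

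Leaving out 1 library at a time, which leaves 1 code with a single library assumed to vary like the others, the F test over codes called 8 to 10 members, not always the same ones. Without KO1013 it called 9 members and 16.1% of all genes, and without WT1013 8 members and 15.8% of all genes, with *Npas4* not called in either case and *Egr4* called in both. Without WT1012 it called 8 members and 21.6% of all genes. The separate contrasts depended more on single libraries. In the contrast KO/WT1013 minus KO/WT1012, without KO1013, 5 members passed (0.0544% of all genes were lower), and without WT1013, 0 members passed (0.0% of all genes were lower), with all 10 differences still below 0 in both cases. For KO/WT1012 minus KO/WT1011, 3 members (*Fos*, *Junb* and *Npas4*) passed as higher without WT1012, against 5.48% of all genes. In the contrast KO/WT1013 minus KO/WT1011, 0 members passed as lower without KO1013 (0.0% of all genes) or without WT1013 (0.342%), and 6 passed without KO1012 (8.77%) or without WT1012 (8.79%).

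Markers of some cell types also differed between the codes. Oligodendrocyte markers summed to 1160 FPKM in KO1013 and 1500 FPKM in WT1013, to 1760 FPKM in KO1012 and 2480 FPKM in WT1012, and to 2300 FPKM in KO1011 and 2000 FPKM in WT1011. All 4 were called over codes, against 30.6% of all genes. Their median log2 difference was -0.69 for KO/WT1013 minus KO/WT1012, -0.66 for KO/WT1013 minus KO/WT1011 and -0.02 for KO/WT1012 minus KO/WT1011. The sum was lower in KO1012 than in KO1011 and higher in WT1012 than in WT1011. Interneuron markers were called in 5 of 6, with sums of 512 FPKM in KO1013, 511 in WT1013, 581 in KO1012, 617 in WT1012, 542 in KO1011 and 525 in WT1011. Within each genotype these sums had the code order of most members. The median log2 difference of these markers was -0.25 for KO/WT1013 minus KO/WT1012, 0.10 for KO/WT1012 minus KO/WT1011 and -0.17 for KO/WT1013 minus KO/WT1011. Excitatory neuron markers were called in 4 of 6, and their median difference between KO/WT1013 and KO/WT1012 was -0.08. Their part in the members' differences was not tested.

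The order of the codes was also read within each genotype. KO1012 was the highest KO library and WT1012 the highest WT library for 10 of 10 members, against 21.8% of all genes. For *Egr3* this place, and the full order given below, rested on nearly equal values of 30.67 FPKM in KO1012 and 30.62 FPKM in KO1011. KO1013 and WT1013 were the lowest of their genotypes for 9 of 10, against 11.5% of all genes. The full order, KO1012 above KO1011 above KO1013 and likewise in WT, held for 9 of 10 members, with *Egr4* the exception, and for 3.96% of all genes. Over the 45 pairs of members, Pearson's r of the log2 levels across the 6 libraries had a median of 0.90 and a lowest value of 0.62, for *Egr4* and *Npas4*. The 6 points share 3 codes, so this is a description only. *Fosb* was closest to the mean of the other members (r = 0.99) and *Npas4* farthest from it (r = 0.81).

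**Figure D3:**
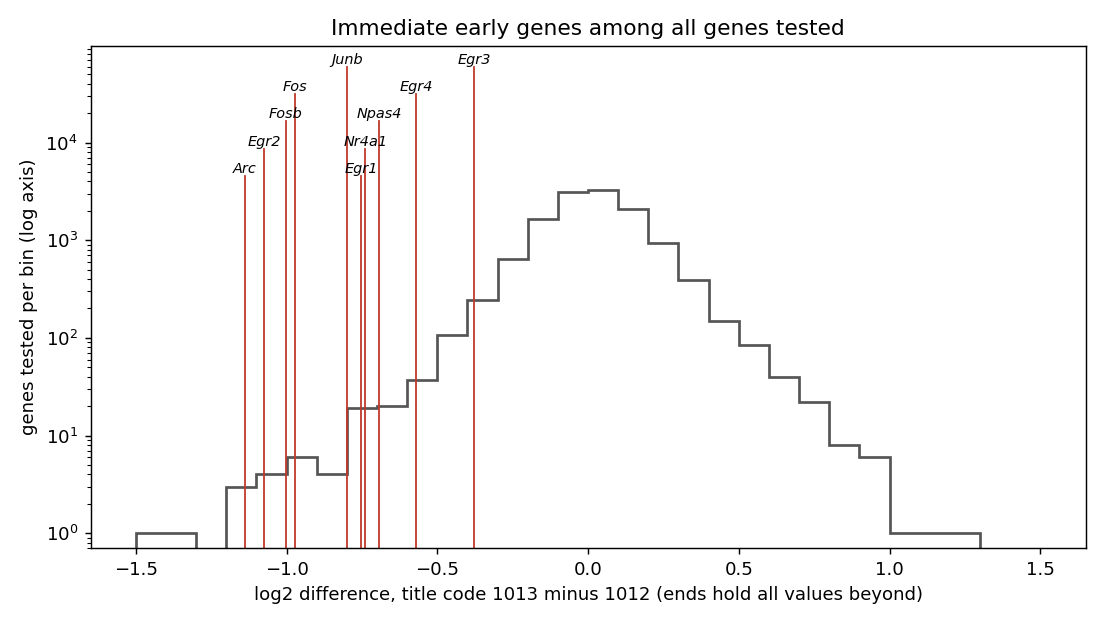
Number of tested genes (vertical axis, log scale) by their log2 difference of KO/WT1013 minus KO/WT1012 (horizontal axis, outline in bins of 0.1), with a red line at each member, whose height has no meaning. The members lie between -1.14 (*Arc*) and -0.38 (*Egr3*), in the left tail of a distribution whose median is 0.02.

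Between KO and WT, no member passed. With limma over all 6 libraries 0 of 10 members were called, with or without the code as a replicate block, and 0 of 10 had an unadjusted p under 0.05 in either fit. Over all genes 1 was called in each fit (*Chrdl1* lower, 0.00777% of all genes; 0.0% were higher), and 0.63% had an unadjusted p under 0.05, or 3.91% with the block. For 0 of 10 members were KO and WT values without overlap, against 2.95% of all genes. The log2 fold changes ran from -0.13 (*Egr3*) to 0.13 (*Nr4a1*), with a median of -0.009, against 0.005 over all genes. *Fos* averaged 24.0 ± 6.51 FPKM in KO and 24.0 ± 11.8 FPKM in WT (SD, n = 3 each), a log2 fold change of 0.07 with a 95% interval of -0.66 to 0.81. *Arc* averaged 58.2 ± 17.8 FPKM in KO and 58.5 ± 26.9 FPKM in WT, with an interval of -0.76 to 0.86. Such intervals allow changes of over 1.5-fold in either direction, since the differences between codes enter the error.

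With the code as a replicate block the intervals were narrower. That of *Fos* was -0.19 to 0.33, that of *Arc* -0.14 to 0.24 and that of *Egr1* -0.26 to 0.19. *Nr4a1* had the smallest unadjusted p of the members in this fit (0.0835, log2 fold change 0.13, interval -0.02 to 0.27), and was not called. *Egr2* had the widest blocked interval, -0.42 to 0.29. Exact 2-sided permutation tests over the 6 libraries gave p from 0.7 to 1.0 for single members, where 0.1 is the smallest that 3 against 3 libraries can give.

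Within codes the members did not share 1 direction. KO1013 was above WT1013 for 9 of 10 members, against 47.4% of all genes, and the median log2 difference was 0.33. *Fosb* read 2.64 FPKM in KO1013 and 1.61 FPKM in WT1013, a KO to WT ratio of 1.64 with an exact binomial 95% interval of 1.37 to 1.97. *Fos* and *Egr4* both had a ratio of 1.38 there, with lower bounds of 1.26 and 1.27. These intervals cover counting error only and compare 2 libraries, not the genotypes.

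KO1012 was below WT1012 for 7 of 10 members, against 47.8% of all genes, with a median of -0.28. *Egr2* read 5.46 FPKM in KO1012 and 8.42 FPKM in WT1012, a ratio of 0.648 (0.580 to 0.724), and *Egr3* had a ratio of 0.732 (0.702 to 0.763). *Npas4* went the other way, with a ratio of 1.13 (lower bound 1.03), while *Junb* was at 1.06 and *Nr4a1* at 1.02 (0.977 to 1.06). KO1011 was below WT1011 for 6 of 10, against 44.5% of all genes, and the median was -0.03. The ratios there lay between 0.774 (*Egr4*) and 1.09 (*Arc*). For 7 of 10 members KO1012 was below WT1012 and KO1013 above WT1013, against 20.8% of all genes.

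The summed level of striatal neuron markers, whose cells also express these genes, stood apart in 2 KO libraries. Over 8 genes it was 250, 106 and 102 FPKM in KO1011, KO1012 and KO1013, against 235, 217 and 253 FPKM in WT. The low sums were those of KO1012 and KO1013. The part of striatal cells in the members' differences within codes was not tested, and 0 of the 8 genes were called between KO and WT. *Gpr6*, among the 8, did not follow the sum. It was at 4.66, 3.39 and 5.56 FPKM in KO1011, KO1012 and KO1013, against 4.64, 3.26 and 6.44 FPKM in WT.

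**Figure D4:**
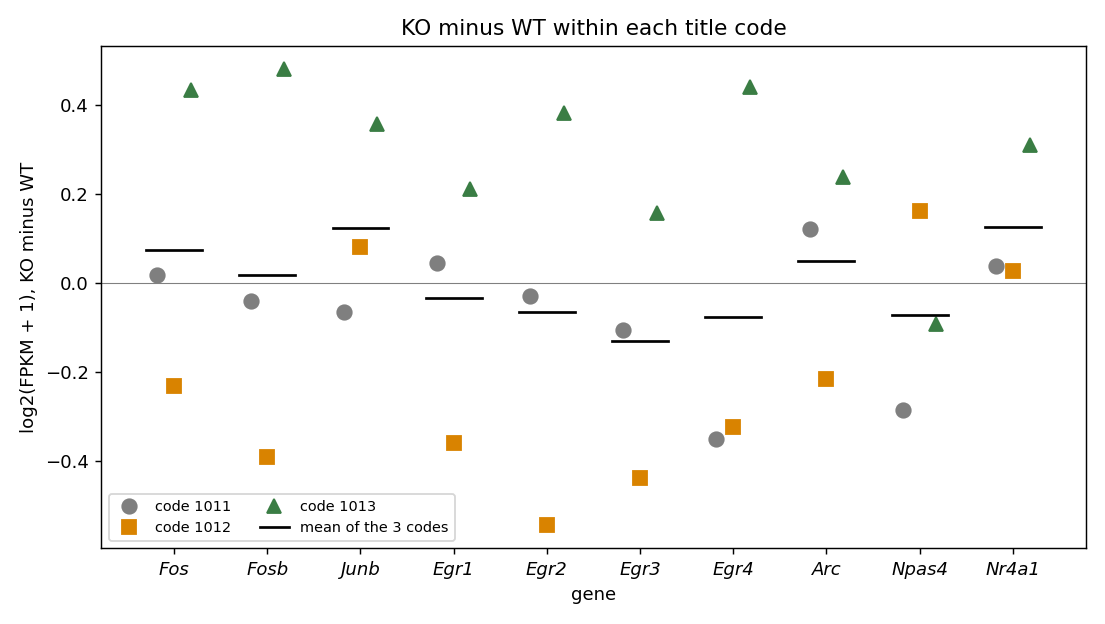
Difference in log2(FPKM + 1), KO minus WT (vertical axis), for each member (horizontal axis) for KO/WT1011 (circles), KO/WT1012 (squares) and KO/WT1013 (triangles), with a bar at the mean of the 3. Triangles lie above 0 for 9 genes, squares below 0 for 7, and no mean is farther from 0 than 0.13.

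For 9 of 10 members the range over the 3 libraries was smaller in KO, with *Npas4* the exception, against 59.0% of all genes. The median range was 0.61 on the log2 scale in KO and 0.995 in WT, while over all genes it was 0.20 in KO and 0.23 in WT. *Fosb* spanned 1.66-fold over the KO libraries and 3.77-fold over the WT libraries, *Egr2* 1.69-fold and 3.75-fold, and *Egr3* 1.06-fold and 1.62-fold. With 1 library per genotype and code, no residual degrees of freedom remain to test whether the genotype difference itself differs between codes, so this was not tested.

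Other activity-regulated genes, from lists chosen with earlier results of these data known, gave the following counts. Of 18 further immediate early transcription factor genes 16 were tested (*Atf3* and *Maff* were under the filter), and 6 passed the F test over codes, 37.5% against 30.6% of all genes. For KO/WT1013 minus KO/WT1012, 4 were lower and 1 higher, against 3.59% lower and 5.6% higher of all genes, and the median was -0.27. *Ier2* was at 8.23 and 7.27 FPKM in KO1013 and WT1013, against 11.6 and 10.3 FPKM in KO1012 and WT1012 (log2 difference -0.45, limma adjusted p = 0.0268). *Klf2*, a Kruppel-like factor also made by endothelium, was lower as well (-0.36, adjusted p = 0.0371), whereas *Myc*, a growth-promoting transcription factor gene, was higher, at 4.16 FPKM in KO/WT1013 and 2.58 FPKM in KO/WT1012 (0.52, adjusted p = 0.0234). *Nr4a3*, a close relative of *Nr4a1*, passed the F test (adjusted p = 0.0166) with a difference of -0.16 between these codes that did not pass. For KO/WT1013 minus KO/WT1011 it was higher (0.35, limma adjusted p = 0.0421), whereas *Nr4a1* was lower. It was the 1 gene of this list higher there and 0 were lower, against 9.85% and 6.76% of all genes. *Ier2* and *Klf2* were at 0.03 and 0.06 in that contrast and did not pass. The full order of codes in both genotypes held for 5 of the 16, against 3.96% of all genes. Between KO and WT 0 of the 16 were called, where *Fosl1* and *Jun* had the smallest unadjusted p, with log2 fold changes of 0.14 and 0.12 and a limma adjusted p of 1 each.

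Immediate early genes for effectors and feedback inhibitors came next. Of 22 genes 21 were tested (*Amigo3* was under the filter), and 9 passed the F test over codes, 42.9%. For KO/WT1013 minus KO/WT1012, 6 were lower and 0 higher, against 3.59% lower and 5.6% higher of all genes, with a median of -0.24. *Dusp1*, a phosphatase gene that shuts off MAP kinases, averaged 16.8 FPKM in KO/WT1013 (mean of 2 libraries) and 27.2 FPKM in KO/WT1012 (log2 difference -0.66, limma adjusted p = 0.00564). *Gadd45b*, a stress-inducible gene linked to DNA demethylation, and *Cyr61*, a matricellular protein gene, were lower by like amounts (-0.67 and -0.65, adjusted p of 0.0162 and 0.0181), and *Dusp6*, an ERK phosphatase gene, by less (-0.24, adjusted p = 0.0318). Between KO and WT 0 of 21 were called, with *Pim1* at -0.17 and *Rgs2* at -0.14.

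Late response genes, which follow the immediate early ones, had 8 of 10 members tested (*Inhba* and *Acan* were under the filter) and 3 called over codes, 37.5%. *Nrn1*, a gene for a secreted neuritin that promotes branching, was lower in KO/WT1013 than in KO/WT1012 (-0.36, limma adjusted p = 0.0117). It was the 1 late gene called in this contrast, against 3.59% lower and 5.6% higher of all genes. *Pcsk1*, a prohormone convertase gene, was called over codes (adjusted p = 0.00781) with its highest level in KO/WT1011, and *Crh*, the gene for corticotropin-releasing hormone, with its highest level in KO/WT1012 (adjusted p = 0.0288). *Nptx2*, a gene for a pentraxin that gathers AMPA receptors, had a difference of -0.32 between KO/WT1013 and KO/WT1012 (adjusted p = 0.0676), and between KO and WT *Tiparp* and *Scg2* were at 0.10 and -0.08, not called. Of 22 genes for upstream regulators and partners, all tested, 9 were called over codes, 40.9% against 30.6% of all genes. For KO/WT1013 minus KO/WT1012, 1 was lower and 2 were higher, against 3.59% lower and 5.6% higher of all genes. The lower one was *Camk2a*, the main synaptic calcium-dependent kinase gene (-0.32, adjusted p = 0.0195), and *Camk4*, a nuclear kinase gene that acts on CREB, was higher (0.30, adjusted p = 0.0216). *Crtc2* and *Elk1* passed the F test (adjusted p of 0.0110 and 0.0180) with differences of 0.03 and -0.13 that did not pass. *Creb1* and *Nab1* had log2 fold changes of 0.10 and 0.07 between KO and WT and were not called, and 0 of the 22 genes were.

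**Figure D5:**
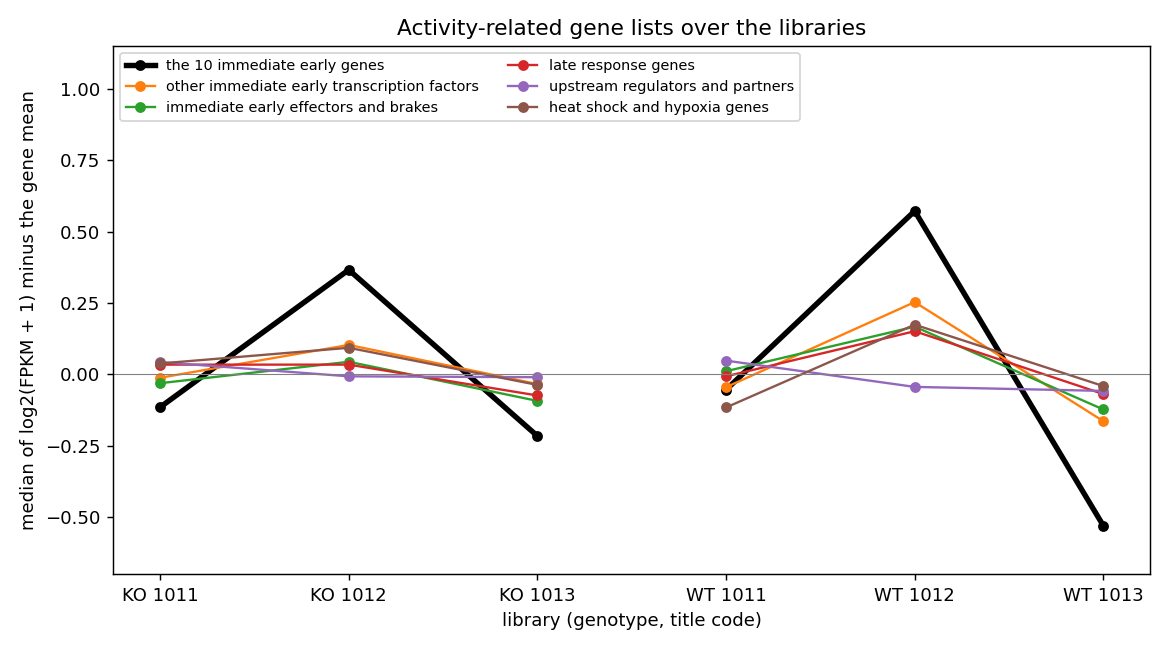
Median over each gene list of log2(FPKM + 1) minus the gene's mean (vertical axis) in each library (horizontal axis, KO then WT), with lines only to guide the eye. The 10 members (black) stand at 0.37 and 0.57 in KO1012 and WT1012, while the other lists lie between -0.16 and 0.25 in every library.

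Outside the members, genes whose profile over the 6 libraries was most like the members' mean, among 1799 with a range of at least 0.5, included *D8Ertd82e*, *C130074G19Rik*, *Rbp4*, *Rilpl1*, *E130012A19Rik*, *Car14*, *Bhlhe40*, *Grasp* and *Arid5a*, with Pearson's r from 0.99 to 0.97. *Bhlhe40*, a transcriptional repressor gene, was at 24.2, 27.6 and 20.5 FPKM in KO1011, KO1012 and KO1013, against 22.8, 36.3 and 17.3 FPKM in WT. It had the code order of the members, and its span was narrower in KO than in WT, both of which its choice by r favours. The least alike were *Isoc1*, *Gpr6*, *Bzw1*, *Hapln1* and *Mme*, with r from -0.996 to -0.98. *Isoc1* was at 8.24, 6.41 and 8.60 FPKM in KO, against 8.06, 5.88 and 10.3 FPKM in WT, so that KO1012 and WT1012 were the lowest of their genotypes.

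Of the stress and hypoxia genes, 7 of 9 tested were called over codes (*Hspa1a*, *Hspa1b* and *Hspb1* were under the filter), against 30.6% of all genes. For KO/WT1013 minus KO/WT1012, 3 were lower and 0 higher, against 3.59% lower and 5.6% higher of all genes. Their part in the members' differences was not tested. *Slc2a1*, a glucose transporter gene, averaged 27.9 FPKM in KO/WT1013 and 39.7 FPKM in KO/WT1012 (-0.50, limma adjusted p = 0.0297), and the chaperone genes *Hspa5* and *Dnajb1* were at -0.22 and -0.25 (adjusted p of 0.0318 and 0.0400). *Vegfa* was highest in KO/WT1011 (adjusted p = 0.00825 over codes), and *Hmox1* and *Ddit4* had log2 fold changes of -0.15 and 0.11 between KO and WT, not called. Over these 5 further lists the smallest unadjusted limma p between KO and WT was 0.0968 (*Pim1*), and 0 genes were called with the replicate block.

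Blood genes summed to 40.3 FPKM in KO1011 and to at most 12.2 FPKM in the other 5 libraries. The remaining sums were narrower. Hippocampal markers ran from 52.6 to 64.5 FPKM in KO and 48.6 to 61.8 FPKM in WT, with KO1012 and WT1012 the highest of their genotypes. Astrocyte markers ran from 285 to 317 FPKM in KO and 285 to 309 FPKM in WT, microglial markers from 87.9 to 91.7 FPKM and 91.5 to 92.2 FPKM, and endothelial markers from 45.2 to 54.3 FPKM and 42.6 to 50.1 FPKM. Pericyte and smooth muscle markers ran from 51.8 to 57.6 FPKM in KO and 48.6 to 54.6 FPKM in WT, and meningeal markers from 44.6 to 55.4 FPKM and 39.4 to 43.4 FPKM. No marker of these lists was at 0 in any library.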

How the data were processed

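The authors deposited 1 table of FPKM values with 24453 gene rows and 6 library columns. Per the file headers it was made with HOMER on mm10, counting over exons with the transcripts of a gene condensed to 1 row. The submitters' processing notes name STAR (2.4.0k), FastQC and HOMER (4.8.3). Of 12 libraries in the header's command 6 are analysed here, and no strand option is given, so overlapping and antisense genes are uncertain. FPKM rise in steps of 1 read, from which totals were estimated: 100.0% of 4897 to 7147 values per library under 200 reads were whole within 0.1 read.

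Levels on the log2(FPKM + 1) scale were tested in R 4.3.3 by limma 3.58.1 (2-sided, variance trended on level) for the 12863 genes averaging at least 1 FPKM, adjusted by Benjamini-Hochberg over all of them. KO against WT was fitted without a block, and the codes with genotype in the fit (2 residual degrees of freedom before moderation). A log2 fold change is KO minus WT there, and the added 1 makes it too small for low genes. The members, gene lists and naming rule (all members, up to 4 genes per list with the smallest p over codes and up to 2 for KO against WT, and the 10 most and 5 least alike in profile) were chosen with earlier results of these data known. One gene that the naming rule takes is not reported here. A gene said to be lower or higher between codes passed at an adjusted p under 0.05.

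Libraries that share a code deviated together from their genotype means, with correlations over tested genes of 0.71, 0.67 and 0.43 for codes 1011, 1012 and 1013, against -0.61 to -0.06 for the other pairings. Deviations from a genotype mean cancel within that genotype, so correlations above 0 for shared codes push the other pairings below 0. By the correlations above 0, the codes pair the libraries in the data, although the labels do not say so. On simulated data for KO against WT (12863 genes, 50 changed by each fold), of genes changed 1.25-fold 0 were called, of those changed 1.5-fold 16, 2-fold 44 and 4-fold 50, and 0 calls were false. The block gave 27, 47, 50 and 50, and 9 false calls. Between codes it called 10, 41, 50 and 50, with 6 false calls. The changed genes were drawn at random from all tested genes. Without the block, the SE of KO against WT had a median of 0.252 over the members and 0.097 over all genes. The simulated counts without the block therefore do not carry over to the members. Those with the block and between codes also drew their spread from all tested genes, and give no rate for the members. The remaining steps ran in Python 3.11.15 (scipy 1.17.1, numpy 2.4.6, matplotlib 3.10.9 and pandas 2.3.3).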

Additional observations from a re-analysis of the deposited data

How the results depend on the processing

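The count of members called between KO and WT was 0 as reported, with the replicate block and under all other settings tried. The count of genes called between KO and WT was 1 as reported and with the replicate block, and 2 with a pseudocount of 0.1 FPKM, 6 with no filter, 0 with a mean of 5 FPKM or more, 2 with limma-voom on recovered reads and the block (added after seeing the data), and 0 to 4 with 1 library or both libraries of a code left out. Between codes, 8 members were called as reported and 3 with no filter (*Junb*, *Arc* and *Nr4a1*), where 1347 genes were called against 3936, or 6.81% against 30.6%; the cause was not tested. With limma-voom all 10 members were called (37.7% of all genes). With 1 library left out, 2038 to 3923 genes were called, fewest without WT1013 (2038) or KO1013 (2076).

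For each member the sign of KO against WT changed when some library, or both of a code, was left out, and none was called. With libraries left out the log2 fold change ran from -0.22 to 0.43 for *Fos*, -0.32 to 0.40 for *Fosb*, -0.11 to 0.36 for *Junb*, -0.27 to 0.26 for *Egr1*, -0.41 to 0.36 for *Egr2*, -0.30 to 0.04 for *Egr3*, -0.34 to 0.18 for *Egr4*, -0.30 to 0.38 for *Arc*, -0.29 to 0.12 for *Npas4* and -0.11 to 0.33 for *Nr4a1*. *Fosb* was at -0.067 with limma-voom and the replicate block. For KO/WT1013 minus KO/WT1011, with a library left out, *Fos* ran from -0.53 to 0.01, *Fosb* from -0.69 to 0.006, *Egr3* from -0.42 to 0.005 and *Egr4* from -0.36 to 0.42, and *Egr4* was at -0.011 with limma-voom. *Egr3* ran from -0.063 to 0.40 for KO/WT1012 minus KO/WT1011. With no filter, 0 members passed as lower for KO/WT1013 minus KO/WT1012 (8 as reported), against 0.00506% of all genes. For KO/WT1012 minus KO/WT1011, 1 member (*Junb*) passed as higher (8 as reported), against 5.45% of all genes. For KO/WT1013 minus KO/WT1011, 0 members passed as lower (3 as reported), against 0.561% of all genes. In the first of these contrasts no member changed sign under any setting tried.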
